A study of Mus musculus with 12 samples.

Results

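Cd79a, Cd79b, Ms4a1, Cd22, Blk, Pax5, Cd37, Fcer2a and Spib are 9 genes by which B lymphocytes are recognised, and each was followed by its gene symbol through the 12 libraries of a study of human HKDC1 overexpression in the mouse liver. They are 9 of the 54532 genes in the count table, and each symbol matched 1 gene. Mice received 1 tail vein injection of an adeno-associated virus of serotype 8 at 10 weeks of age, were kept on a low-fat diet and were sampled 16 weeks later. The vector used a hepatocyte promoter, that of thyroxine-binding globulin, and carried either full-length human HKDC1 (hHKDC1 OE) or no HKDC1 (null). Liver and subcutaneous fat were sequenced, with 3 libraries for each tissue and vector, and the fat came from male mice. The methods say that the promoter confines the transgene to hepatocytes, so hHKDC1 OE fat is fat of a mouse whose liver carries the transgene. The strain is not given in the sources used here. The labels describe replicates 2 and 3 of hHKDC1 OE in each tissue as knockouts in 1 field and as overexpression in another, and the group was taken from the treatment field.

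B cells carry a membrane immunoglobulin as their antigen receptor, and Cd79a and Cd79b are the signaling chains that sit beside it. When antigen binds, Src-family kinases such as Blk and Lyn phosphorylate these chains, Syk is recruited and Btk and phospholipase C gamma carry the signal on, while inhibitory receptors such as Cd22 restrain it. Pax5 is the transcription factor that commits lymphoid progenitors to the B lineage, and Spib is an Ets-family factor of mature B cells. Mature recirculating B cells are found in blood, spleen, lymph nodes and small lymphoid clusters of fat depots, and subcutaneous fat pads also enclose lymph nodes.

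RefSeq promoters, running from 250 bases before to 50 bases after a transcription start on GRCm38.p6, were at hand for 6 of the 9 genes (Cd79a, Cd22, Pax5, Cd37, Fcer2a and Spib) and not used here for Cd79b, Ms4a1 and Blk. Of the 3 promoters shown, that of Cd79a belongs to the member with the highest mean FPKM (a level per gene length) in hHKDC1 OE fat, that of Spib to the member with the largest difference between the fat groups, and that of Cd37 to the member with the smallest. They are written 5′ to 3′ on the strand of the gene, with each GGAA or its reverse complement, the core letters bound by Ets-family factors such as Spib and PU.1, in capitals.
Cd79a, chr7:24897247-24897546, plus strand: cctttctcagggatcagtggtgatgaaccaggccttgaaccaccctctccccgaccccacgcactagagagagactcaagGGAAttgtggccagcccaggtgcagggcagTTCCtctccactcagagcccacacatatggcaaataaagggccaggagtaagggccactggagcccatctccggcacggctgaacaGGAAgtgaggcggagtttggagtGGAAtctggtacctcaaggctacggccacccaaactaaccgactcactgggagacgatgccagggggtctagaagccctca
Spib, chr7:44532022-44532321, minus strand: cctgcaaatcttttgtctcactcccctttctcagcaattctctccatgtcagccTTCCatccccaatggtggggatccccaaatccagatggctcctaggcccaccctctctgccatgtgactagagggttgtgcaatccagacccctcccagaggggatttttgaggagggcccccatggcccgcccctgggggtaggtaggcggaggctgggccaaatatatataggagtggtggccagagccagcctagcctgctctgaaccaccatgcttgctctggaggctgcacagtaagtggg
Cd37, chr7:45238790-45239089, minus strand: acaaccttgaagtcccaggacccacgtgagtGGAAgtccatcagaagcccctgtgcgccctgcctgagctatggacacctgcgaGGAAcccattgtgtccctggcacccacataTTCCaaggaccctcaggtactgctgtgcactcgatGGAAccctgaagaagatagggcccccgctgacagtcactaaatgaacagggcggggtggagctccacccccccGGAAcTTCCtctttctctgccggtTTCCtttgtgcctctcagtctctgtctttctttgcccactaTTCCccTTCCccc
The promoter of Cd79a held 4 such matches, that of Spib 1 and that of Cd37 9, beside a median of 3 over the 32851 RefSeq promoters searched, of which 96% held at least 1. The motif searches covered both strands. The letters ATTTGCAT of the octamer motif were in none of the members' promoters and in 1.74% of all promoters. The letters CCCNNGGG, the core of the motif bound by Ebf1, matched 2 positions in the Spib promoter and 1 in the Cd22 promoter, beside a share of 13.7% of all promoters with a match. CANNTG, the E-box, was in the promoter of each of these 6 genes and in 72.3% of all promoters, and TATAAA was in 1 of the 3 Fcer2a promoters and in 13.6% of all. The motifs can overlap each other, and a match is a run of letters and not a binding site.

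Counts on genes came to between 15496019 and 19954971 per library. The human transgene was not analysed here, and mouse Hkdc1 had between 0 and 8 counts in each of the 12 libraries. The study's supplement gives 3 mice per group for the fat libraries. Nothing in the sources used here says so for the liver libraries, where the p-values measure the spread between these libraries, which may be technical. Levels below are given as counts, as CPM (counts scaled to library size by the TMM method within a tissue, and so not to be compared between tissues) or, between genes, as the deposited FPKM, which is also divided by gene length. In fat, the library labelled hHKDC1 OE replicate 2 stood apart from replicates 1 and 3 in the B cell genes. Over all genes compared, it differed from replicates 1 and 3 by a chi-square of 154 and 126 per gene, against 51.2 between those replicates. In liver, hHKDC1 OE replicate 2 had 121 and 100, against 40.3. In null fat, replicate 3 had 88.9 and 92.3, against 24.7 between replicates 1 and 2. The results that rest on hHKDC1 OE fat replicate 2 are given with and without it.

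Transcripts of the 9 B cell genes were scarce in null fat and in the livers of both groups, and were far more abundant in the fat of all 3 hHKDC1 OE libraries. Summed over the 9 genes, the level in null fat was 9.42, 6.51 and 13.7 CPM, a mean of 9.88 ± 3.62 (SD, n = 3). In hHKDC1 OE fat it was 1050, 69.5 and 739 CPM, a mean of 620 ± 501 (SD, n = 3). The lowest hHKDC1 OE library was thus 5.07 times the highest null library, while the hHKDC1 OE libraries themselves were spread more widely than that. In liver the summed level was 2.29, 4.04 and 7.19 CPM with the null vector and 5.04, 3.99 and 3.41 CPM with hHKDC1 OE, and these ranges overlapped. In bulk tissue, more cells of a type and more RNA per cell cannot be told apart.

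**Figure D1:**
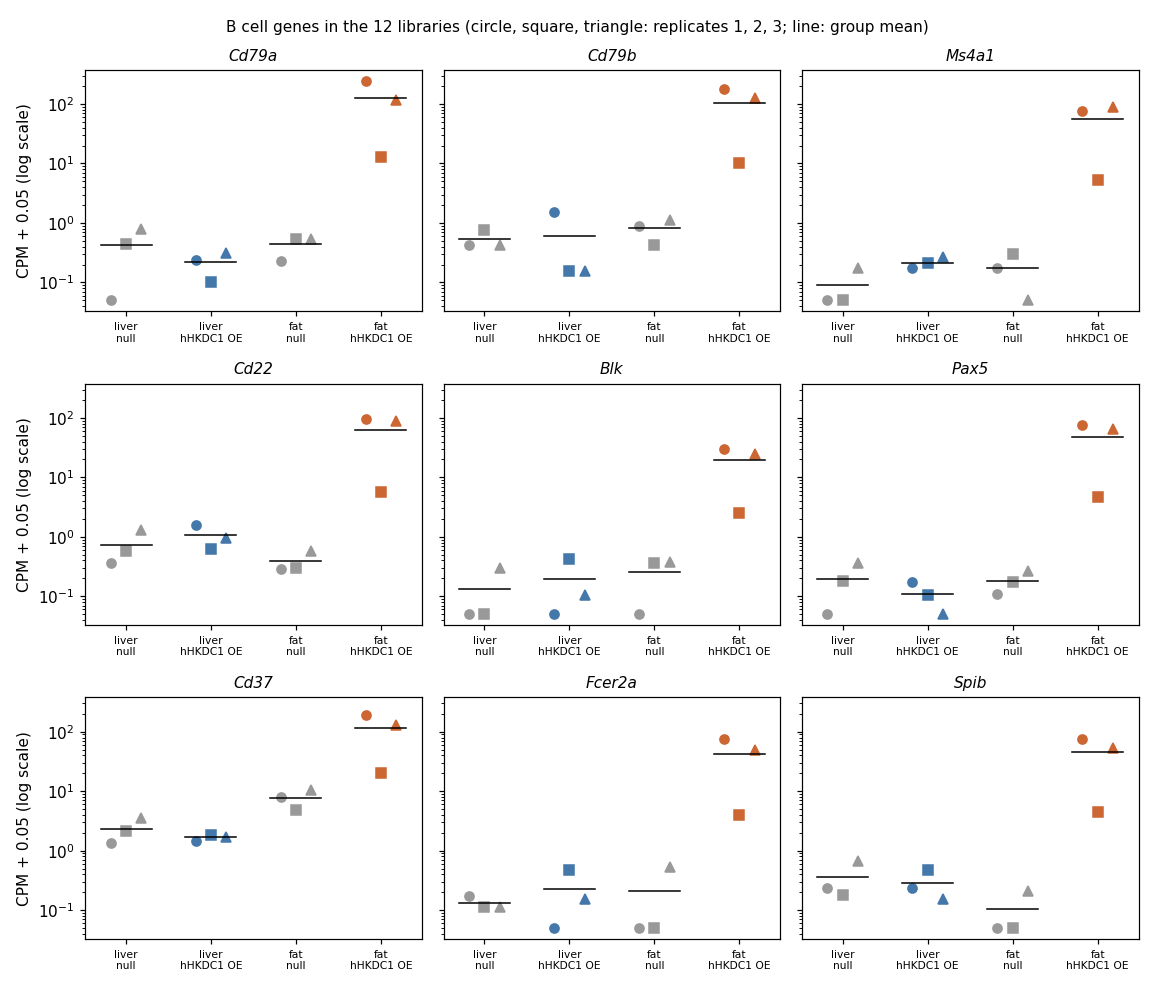
Each panel plots 1 gene, with CPM, scaled within each tissue, plus 0.05 on a log axis for the 3 libraries of each of the 4 groups and a line at the group mean. All 9 genes were higher in the 3 hHKDC1 OE fat libraries than in any null fat library, and the square, replicate 2, was the lowest of the 3 in each panel.

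The signaling chains of the antigen receptor were among the members with the most counts in hHKDC1 OE fat, beside Cd37. Cd79a (chromosome 7, 24897381 to 24902197, plus strand, GRCm38) was counted 3, 8 and 9 times with the null vector and 5212, 260 and 1870 times with hHKDC1 OE. No hHKDC1 OE library came near the null range, and the log2 fold change was 8.30 with a standard error of 1.24. Cd79b (chromosome 11, 106311341 to 106314762, minus strand), its partner in the heterodimer, reached 14, 6 and 20 counts with the null vector but 3756, 211 and 2036 with hHKDC1 OE. Its groups did not overlap either, with a log2 fold change of 7.07 and a standard error of 1.14. Blk (chromosome 14, 63372836 to 63417037, minus strand), the Src-family kinase of B cells that acts on these chains, stood at 0, 5 and 6 counts in null fat, but at 644, 50 and 406 in hHKDC1 OE fat. Its log2 fold change of 6.46 (SE 1.21) came from lower counts than those of the chains, and its hHKDC1 OE libraries again stood above all null libraries.

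Among the surface molecules, Ms4a1 (chromosome 19, 11249675 to 11266241, minus strand) encodes CD20, a marker of B cells from the pre-B stage until they become plasma cells. It had 2, 4 and 0 counts in null fat against 1609, 106 and 1434 in hHKDC1 OE fat, a log2 fold change of 8.82 (SE 1.39), and it was the member for which replicate 3 rather than replicate 1 was the highest in CPM. Cd22 (chromosome 7, 30865402 to 30880342, minus strand), a sialic acid-binding inhibitory coreceptor, had 4, 4 and 10 counts in null fat against 2013, 114 and 1445, a log2 fold change of 7.48 (SE 1.20). Fcer2a (chromosome 8, 3681737 to 3694175, minus strand) encodes CD23, the low-affinity receptor for IgE, which is typical of follicular B cells. It had no count in null fat replicates 1 and 2, where 0 allows up to 3, and 9 in replicate 3, against 1598, 80 and 799 in hHKDC1 OE fat. Its log2 fold change was 7.91 (SE 1.48), and it was 12.57 when null replicate 3 was left out, since the other null libraries hold no count of it.

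Cd37 (chromosome 7, 45233632 to 45239115, minus strand) is a tetraspanin that is abundant on mature B cells and also present on other leukocytes. It was the member with the most counts in null fat, 131, 76 and 196, while hHKDC1 OE fat held 4047, 415 and 2116. Its groups did not overlap, although replicate 2 of hHKDC1 OE was only 1.93 times the highest null library in CPM, where the other 8 members were 7.61 to 27.1 times theirs. The log2 fold change of 3.88 (SE 0.79) was the smallest of the 9. Tead2 overlaps Cd37 by 13 bases on the opposite strand, the libraries keep no strand, and Tead2 as a whole had 634 counts over the 6 fat libraries.

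The lineage factors were near 0 in null fat. Pax5 (chromosome 4, 44524757 to 44710487, minus strand) had 1, 2 and 4 counts there against 1619, 96 and 1039 with hHKDC1 OE, a log2 fold change of 8.41 (SE 1.27). Spib (chromosome 7, 44525993 to 44532071, minus strand) had 0, 0 and 3 counts with the null vector against 1608, 89 and 876 with hHKDC1 OE. All null counts of Spib thus came from 1 library, and the ratio of its scaled counts between the groups was 760, with a 95% interval from 260 to 3690 that covers counting error only. Its fitted log2 fold change was 9.43 (SE 1.48), the largest of the 9, and it reached 12.63 without null replicate 3.

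No member passed the test in fat. With edgeR's quasi-likelihood test and Benjamini-Hochberg adjustment over 16380 genes, each of the 9 had an adjusted p of 0.133, which was the smallest of any gene and was shared by 366 genes, and 0 of the 9 members were called, beside 0% of all genes. At an unadjusted p under 0.05 stood 9 of the 9, with p from 0.00027 to 0.0017, beside 17.7% of all genes and 11.3% of all genes counted as higher. The groups did not overlap for any of the 9, and hHKDC1 OE was higher, beside 12.5% of all genes. An exact two-sided permutation test gave 0.1 for each member, the smallest p that 3 libraries against 3 allow. DESeq2 called all 9, with adjusted p from 2.02e-15 for Pax5 to 0.00253 for Fcer2a, beside 7.95% of all genes called and 6.72% called as higher. Cd79a, Ms4a1, Cd22, Blk, Pax5, Fcer2a and Spib, 7 of the 9, reached the minimum level of 0.55 CPM in no null library, and Cd79b reached it in 2 where the filter needs 3. All members but Cd37 were thus tested only because of their level in hHKDC1 OE fat, so the counts and the median describe the genes and support nothing.

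The calls turned on hHKDC1 OE replicate 2. Without that library edgeR called all 9 members, with adjusted p from 0.000114 for Cd22 and Pax5 to 0.0014 for Fcer2a, beside 18.9% of all genes and 11.4% called as higher. Leaving out any other fat library left 0 of the 9 called, with adjusted p up to 0.406. Keeping hHKDC1 OE replicate 1 alone, the library of that group that no label field describes as a knockout, against the 3 null libraries gave 9 of 9 called, beside 5.58% of all genes, where the lone library is assumed to vary like the null libraries. All 9 were also called with no filter on low counts, beside 2.69% of all genes, and when the fat contrast was taken from 1 fit of the 12 libraries, beside 5.13%.

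**Figure D2:**
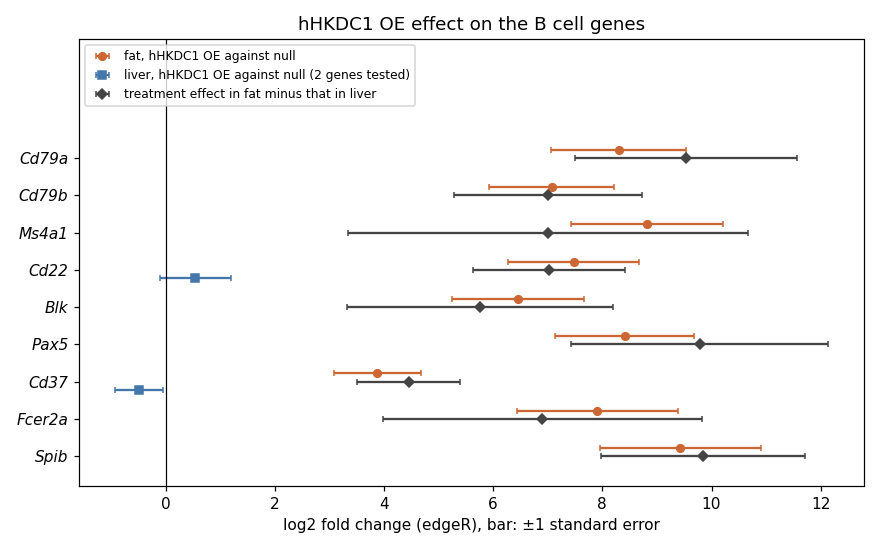
Points are edgeR log2 fold changes of the 9 genes in fat (circles), in liver for the 2 genes tested there (squares) and the effect in fat minus that in liver (diamonds), and bars are 1 standard error on either side. The fat values lie between 3.88 and 9.43, and the liver values are 0.54 for Cd22 and -0.49 for Cd37.

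The 3 hHKDC1 OE fat libraries held the same 9 transcripts at different heights. Replicate 1 exceeded replicate 2 by 9.45 to 19.4 times in CPM, with Cd37 at the lower end and Cd79a and Fcer2a at the upper end, whereas the same ratio had its 5th and 95th percentiles over all genes at 0.388 and 4.71 and its median at 1.05. Replicate 3 exceeded replicate 2 by 6.41 to 17 times, beside percentiles of 0.313 and 4.03 over all genes. Replicates 1 and 3 were closer, with ratios from 0.865 for Ms4a1 to 2.15 for Cd79a. Together the 9 genes took 0.111%, 0.00738% and 0.0767% of the counts of replicates 1, 2 and 3, and at most 0.00138% of those of a null fat library.

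Per length, the signaling chains led the order in hHKDC1 OE fat. Mean FPKM was 59.8 ± 55.7 for Cd79a and 50.9 ± 41.4 for Cd79b (SD, n = 3), and Cd79a was the higher in 2 of the 3 libraries, so their order was not fixed. Cd37 followed at 22.6 ± 17 FPKM and Spib at 10.9 ± 8.86, and each step down to here from Cd79b held in 3 of 3 libraries. Fcer2a at 9.68 ± 8.12 FPKM lay just under Spib in every library, by 1.08 to 1.2 times, and traded places with Cd22 at 8.75 ± 6.87. Ms4a1 at 6.37 ± 5.02 FPKM and Blk at 5 ± 3.8 also changed order between libraries, and Pax5 was the lowest in 3 of 3 at 3.82 ± 3. The group SDs overlap at every step, because replicate 2 was low for all 9, so the order rests on the comparison within each library. In null fat, Cd37 was the highest at 1.63 ± 0.643 FPKM, before Cd79b at 0.398 ± 0.192 and Cd79a at 0.197 ± 0.0901.

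In liver, the tissue that carries the transgene, the B cell genes were near the limit of counting in both groups. Cd37 had 21, 32 and 56 counts with the null vector and 23, 34 and 31 with hHKDC1 OE, and Cd22 had 5, 8 and 20 against 25, 11 and 17. The groups overlapped for both genes, where 6.31% of all genes were higher and 6.18% lower without overlap, and they were the only members to pass the filter on low counts there. The log2 fold change was -0.49 for Cd37 (SE 0.44, adjusted p = 0.878, edgeR) and 0.54 for Cd22 (SE 0.65, adjusted p = 0.911, edgeR). With 1 liver library left out at a time, the value for Cd37 ranged from -0.77 to -0.05 and that for Cd22 from 0.11 to 1.27. Cd79b had 6, 11 and 6 counts against 24, 2 and 2, so that hHKDC1 OE replicate 1 was the highest liver library and the others were under the null libraries. The remaining 6 genes had between 0 and 12 counts in any liver library, and at this depth a difference between the groups was not detectable for them. With edgeR, 0 of the 2 tested members were called in liver, beside 0% of all genes, and 0 of 2 stood at an unadjusted p under 0.05, beside 6.94% of all genes. DESeq2 called neither, beside 0.674% of all genes. With the replicate number as a block, since same-numbered liver libraries deviated together, neither member was called and the genes called went from 0 to 17.

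The difference between the effects in fat and in liver was tested over the 12 libraries, taken as independent. The study does not say whether fat and liver libraries came from the same mice. It was 9.84 on the log2 scale for Spib, 9.78 for Pax5 and 9.53 for Cd79a, and the smallest was 4.45 for Cd37 (SE 0.94). Standard errors were larger for genes with almost no liver counts, such as Ms4a1 at 7 (SE 3.66). Ms4a1 and Blk had counts in 1 null liver library only, replicate 3, and without it their values were 3.70 and 1.53 in place of 7 and 5.76, each with an adjusted p of 1 (edgeR), while the other 7 members lay between 4.02 and 8.89. Without null fat replicate 3, Fcer2a was 10.98 in place of 6.90. With edgeR 0 of the 9 were called, beside 0% of all genes, with adjusted p from 0.139 to 0.448, and 8 of 9 stood at an unadjusted p under 0.05, all but Ms4a1, beside 12.7% of all genes and 9% counted as higher in fat. DESeq2 called 7 of 9, beside 2.9% of all genes and 2.34% called as higher in fat. Cd79a, Ms4a1, Blk, Pax5, Fcer2a and Spib reached the minimum level of 0.57 CPM in at most 1 library outside hHKDC1 OE fat and were tested only because of their level there, so these counts too describe the genes and support nothing. Blk (adjusted p = 0.239, DESeq2) and Fcer2a (adjusted p = 0.0935, DESeq2) were not called. Without hHKDC1 OE fat replicate 2, edgeR called 6 of the 9, beside 6.77% of all genes, as it did with no filter on low counts, beside 1.53%, and without the libraries described as knockouts, beside 0.669%. In that last setting the difference was 11.30 in place of 5.76 for Blk and 12.92 in place of 6.90 for Fcer2a, neither called, and the median of the 9 was 9.36 in place of 7.

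Without the transgene, 2 members could be compared between fat and liver, with both tissues scaled together. Cd37 had 131, 76 and 196 counts in null fat against 21, 32 and 56 in null liver, and Cd79b 14, 6 and 20 against 6, 11 and 6. Cd37 was 0.83 higher in null fat on the log2 scale (SE 0.44, adjusted p = 0.137, edgeR) and Cd79b was at -0.27 (SE 0.60, adjusted p = 0.715, edgeR). Neither was called, beside 64.3% of all genes, and the groups overlapped for both, where 37.8% of all genes were higher in fat without overlap. Scaling by library size alone took the median over all genes tested from 0.0877 to 0.976, turned the Cd79b value to 0.63 and led to a call for Cd37, so the direction for Cd79b is not settled. Cd22, with 4, 4 and 10 counts in null fat against 5, 8 and 20 in null liver, and Spib, with 0, 0 and 3 against 3, 2 and 10, did not pass the filter on low counts.

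The rest of the B cell programme was read from lists of its parts, by counts and by the median log2 fold change in fat, where the median of all 16380 genes tested was -0.0455 and became 0.109 with scaling by library size alone. No gene of any list was called by edgeR in fat. DESeq2 called all 13 receptor signaling genes, all 11 homing and survival genes and all 13 T cell genes. It called 2 of 8 macrophage genes and 0 of 4 germinal centre genes, beside 7.95% of all genes and 6.72% called as higher. Each count below at an unadjusted p under 0.05 stands beside 17.7% of all genes, 11.3% of all genes being higher. As for the members, list genes that reached the minimum level in fewer than 3 null fat libraries, among them Ccr6, Ccr7, Tnfrsf13c and Iglc3, were tested only because of their level in hHKDC1 OE fat, so the counts and medians of the lists, those of other cell types included, describe the genes and support nothing. Among the immunoglobulin chains of the receptor, 5 of the 6 stood at an unadjusted p under 0.05 and all 6 were higher, with a median of 5.79. Iglc3, a lambda light chain, had no count in the 3 null fat libraries and 566, 27 and 326 in hHKDC1 OE fat, and Iglc2 had 0, 11 and 1 against 1245, 101 and 738. Igkc, the constant gene of the kappa light chain, was present in null fat at 627, 135 and 126 counts, against 25463, 2484 and 9822. Its log2 fold change was 5.18 (SE 1.08). The exception was Ighm, the heavy chain of IgM, which null fat held at 11406, 3655 and 8936 counts against 16752, 14005 and 8903 with hHKDC1 OE. Its log2 fold change was 0.53 (SE 0.40, unadjusted p = 0.218, edgeR), and its groups overlapped. Ighd, the heavy chain of IgD that naive B cells carry beside IgM, had 36, 17 and 40 counts against 5417, 323 and 3056. The level of Ighm in null fat was thus high where Cd79a and Cd79b, without which membrane IgM is not carried to the surface, had at most 20 counts.

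Genes that carry the receptor signal were all higher in hHKDC1 OE fat, 13 of 13 at an unadjusted p under 0.05 with a median of 2.77. Lyn and Dapp1, which myeloid cells also use, had the smallest log2 fold changes, 0.79 (SE 0.22) and 1.36 (SE 0.44). Of 6 tested surface proteins and phosphatases that modulate this signal, 5 stood at an unadjusted p under 0.05, with a median of 3.77. The B cell surface proteins Fcrl1 and Siglecg had log2 fold changes of 6.85 (SE 1.20) and 6.19 (SE 1.03). The phosphatase Inpp5d had 1.69 (SE 0.38) and Fcgr2b, an Fc receptor shared with macrophages, had 0.59 (SE 0.36).

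Other B cell surface genes had a median of 4.57, with 7 of 8 at an unadjusted p under 0.05. Fcmr, the receptor for the Fc part of IgM, had 5 counts in each null fat library and 2427, 144 and 1279 in hHKDC1 OE fat. Cr2, the complement receptor CD21, had a log2 fold change of 6.17 (SE 1.17). Cd38 was at 1.09 (SE 0.30) and Cd24a, which many epithelial and immature cells carry, was at 0.21 (SE 0.84), with overlapping groups. Of 11 transcription factors of the lineage, 9 were higher and 2 lower, with a median of 2.63. Pou2af1, the octamer coactivator of B cells, had 7, 0 and 8 counts against 1395, 75 and 680, and Bcl11a had 6, 1 and 12 against 449, 14 and 267. Ebf1, which works with Pax5 in B cells and is also a factor of adipocytes, stood at 2576, 2233 and 2294 counts with the null vector against 2164, 2958 and 1818, a log2 fold change of -0.22 (SE 0.18). Foxo1 was lower, at -0.75 (SE 0.16, adjusted p = 0.133, edgeR).

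Receptors and ligands for B cell homing and survival had a median of 6.60, with 11 of 11 at an unadjusted p under 0.05. Ccr6 had no count in null fat but 151, 17 and 130 with hHKDC1 OE, and Tnfrsf13c, the receptor for the survival factor BAFF, had 0, 1 and 0 against 539, 21 and 436. BAFF itself, Tnfsf13b, had a log2 fold change of 1.11 (SE 0.34) and the chemokine receptor Cxcr4 one of 1.73 (SE 0.41). Of 4 germinal centre genes tested, 2 stood at an unadjusted p under 0.05, with a median of 1.30. Gcsam was at 1.90 (SE 0.87), Mef2b at 1.83 (SE 0.60), S1pr2 at 0.76 (SE 0.29) and Bcl6 at 0.31 (SE 0.42).

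Of 8 plasma cell genes tested, 5 stood at an unadjusted p under 0.05, with a median of 1.13. Mzb1, a chaperone of immunoglobulin assembly, had 6, 0 and 2 counts against 707, 74 and 278, and Jchain had a log2 fold change of 3.19 (SE 0.80). Xbp1 and Sdc1, which other cells of fat also express, were at 0.14 (SE 0.15) and -0.33 (SE 0.24). Of the genes of early B cell development in the bone marrow, Vpreb2, Igll1 and Rag1 had no count in any of the 12 libraries and Vpreb3 alone was tested, at 4.54 (SE 1.16). Relatives of the members from their gene families were mixed, with 10 of 13 higher and a median of 1.55. Lck, the T cell counterpart of Blk, was at 5.58 (SE 1.03) and Spic, an Ets relative of Spib, at 4.02 (SE 0.99), while the Src kinase Yes1 was at -0.37 (SE 0.25) and the tetraspanin Cd81 at -0.16 (SE 0.22), which became 0 with scaling by library size alone.

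**Figure D3:**
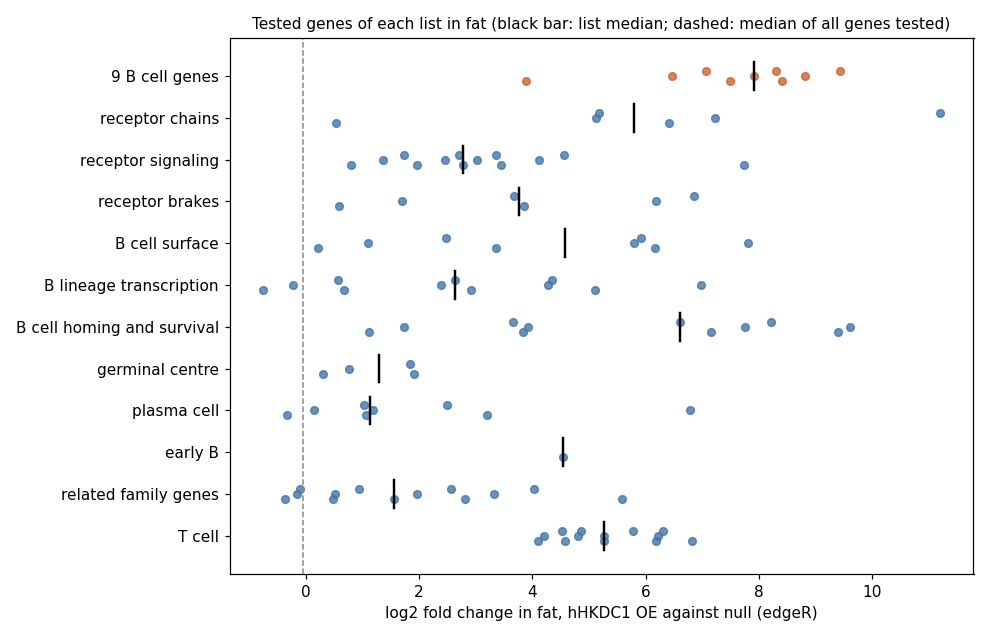
Each point is the edgeR log2 fold change in fat of 1 tested gene, grouped by list, with a black bar at the list median and a dashed line at the median of all genes tested (-0.0455). List medians are 7.91 for the 9 B cell genes, 2.77 for receptor signaling, 1.30 for germinal centre, 1.13 for plasma cell and 5.26 for T cell genes, and genes under the minimum level in null fat are plotted only because of their level in hHKDC1 OE fat.

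Markers of other cells of lymphoid tissue were higher in the same fat libraries. All 13 T cell genes stood at an unadjusted p under 0.05, with a median of 5.26, and their summed level was 12.5, 9.43 and 22.7 CPM in null fat against 766, 57.1 and 964 with hHKDC1 OE. Cd8b1 and Cd8a, which make up the CD8 coreceptor, showed the largest differences, at 6.82 (SE 1.18) and 6.30 (SE 1.10), and Cd28 and Cd2 the smallest, at 4.10 (SE 0.90) and 4.20 (SE 0.86). The 9 B cell genes summed to 1.37, 1.22 and 0.767 times the T cell list in hHKDC1 OE replicates 1, 2 and 3 and to 0.604 to 0.754 times in null fat. So the libraries with many B cell transcripts were also those with many T cell transcripts, and replicate 2 was low in both lists.

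Of the lymph node stroma and high endothelial venule list, 6 of 7 genes were in the table, of which 3 (Glycam1, Fut7 and Ccl21a) were tested, each only through its level in hHKDC1 OE fat, so no count or median is given for them. Its summed level was 0.186 to 1.22 CPM in null fat against 99.1, 3.91 and 35.4 with hHKDC1 OE. Glycam1, a sulfated ligand for L-selectin made by the high endothelial venules of lymph nodes, was counted 0, 0 and 1 times in null fat against 591, 43 and 348 times with hHKDC1 OE, and none in liver. Ccl21a, a chemokine of lymph node stroma, had 20, 1 and 0 counts against 1299, 15 and 76, and its groups overlapped. Fut7, an enzyme that builds selectin ligands, had 0, 0 and 3 counts against 90, 11 and 53. Glycam1 and Fut7 were thus at or near 0 in null fat and highest in hHKDC1 OE replicates 1 and 3, while most counts of Ccl21a were in replicate 1. The part of these genes in the result was not tested.

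The other cell type lists moved less or the other way. Medians in fat were 2.34 for NK cell genes, of which 5 of 6 stood at an unadjusted p under 0.05, 2.36 for 3 tested neutrophil genes, 2.07 for 4 plasmacytoid dendritic cell genes, 0.86 for 6 dendritic cell genes and 0.86 for 8 macrophage genes, of which 4 stood there. Summed macrophage levels were 321 to 691 CPM in null fat and 933 to 1500 in hHKDC1 OE fat, and did not overlap. Adipocyte genes, 19800 to 26500 CPM in null fat and 15200 to 25800 in hHKDC1 OE fat, had a median of -0.55 and none of 6 stood at an unadjusted p under 0.05, so the labelled tissue was present in all 6 libraries. Medians were negative for red cell genes (-1.09), hepatocyte genes (-1.52), skeletal muscle genes (-1) and keratinocyte genes (-5.43). Hepatocyte genes summed to 2910, 2990 and 8760 CPM in null fat, with replicate 3 the highest, and to 2420, 862 and 1410 in hHKDC1 OE fat. Keratinocyte genes summed to 210, 12 and 84.9 CPM in null fat and to 1.8, 9.68 and 3.32 in hHKDC1 OE fat, and skeletal muscle genes to 17100, 20600 and 477 CPM against 13800, 945 and 2270, so that both lists also varied widely within null fat. The part of these differences in the B cell result was not tested.

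**Figure D4:**
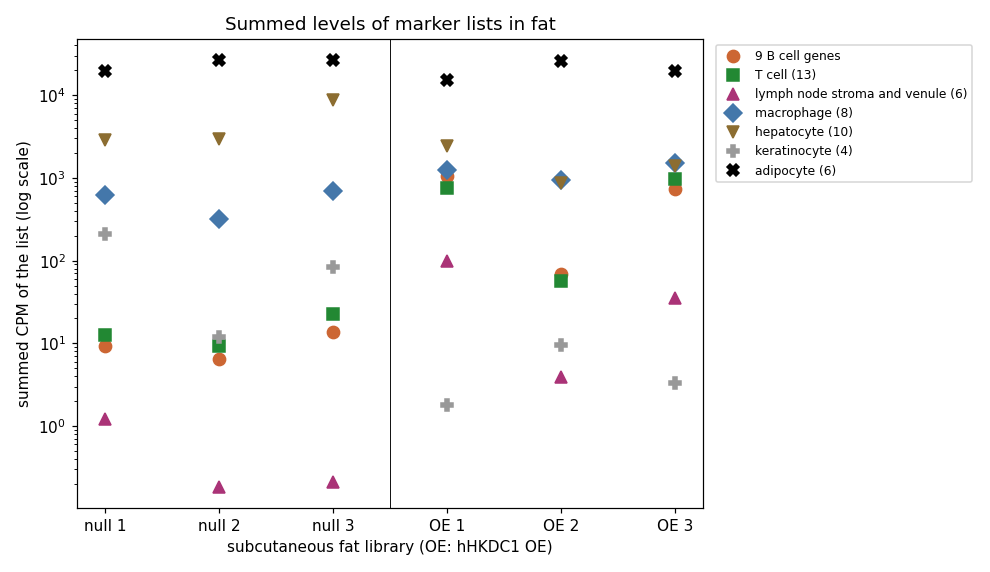
Points are the summed CPM, on a log axis, of each marker list in the 3 null and the 3 hHKDC1 OE fat libraries, and the number in brackets is the number of genes summed. The B cell, T cell and lymph node lists are high in OE 1 and OE 3, low in the null libraries and in between in OE 2, while the adipocyte list stays between 15200 and 26500 CPM.

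Over the 12 libraries, the genes whose log2 CPM was most like the mean of the 9 members were Glycam1 (r = 0.991), Insm1 (0.991), H2-Eb2 (0.988), Igkv6-32 (0.987), Ccr7 (0.987), Lef1 (0.986), Trbv1 (0.986), Syt13 (0.986), Ffar1 (0.986) and Vmn2r97 (0.985), by Pearson correlation over 16212 ranked genes. H2-Eb2 is a class II histocompatibility gene, Igkv6-32 a kappa light chain segment, Ccr7 the receptor by which lymphocytes enter lymph nodes, and Lef1 and Trbv1 are genes of T cells. Besides the members, 130 genes reached 0.95. The correlations are descriptions over 12 points that share tissue and treatment and of which 3, the hHKDC1 OE fat libraries, hold nearly all counts of the members. By Spearman correlation 0 of these 10 genes remained among the first 10, and over the 6 fat libraries alone 3 did. The members' own correlations with that mean, which includes them, ranged from 0.956 to 0.993.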

How the data were processed

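Per the study's methods, the libraries were not strand-specific, and the authors aligned paired reads with STAR (2.5 and a later version) and obtained gene counts from HTSeq (0.6.1). The deposited counts are whole numbers without normalization. The deposited FPKM were proportional to counts divided by gene length and by DESeq2 size factors of the 12 libraries. After removal of a common constant, 100% of 252371 values above 0 were within 1%. The methods name the human genome, but the identifiers are mouse, and 98.1% match GENCODE mouse release 21 (GRCm38) in position. The authors' own comparison tables, which hold fold changes and p-values, were not used.

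Counts were fitted in R 4.3.3 with edgeR 4.0.16 (TMM, filterByExpr with a minimum of 10 counts, quasi-likelihood test, Benjamini-Hochberg adjustment over all genes, threshold 0.05), each tissue apart, with the 12 libraries together for the difference between tissues. DESeq2 1.42.0 and limma 3.58.1 were alternatives. The scripts were tested on simulated data. Same-numbered libraries had correlated deviations in liver (0.23, 0.19 and 0.12) but not in fat (0.03, -0.14 and 0.04). Between null fat and null liver the values were 0.27, 0.04 and 0.15, against -0.21 to 0.04 for unlike numbers. The 9 genes and the lists were chosen with earlier results of these data known. Of each list, the 2 genes with the largest and the 2 with the smallest fold change in fat were named. Ighd, Igkc and genes at 0 in all libraries were named after their values were seen. A few genes picked by the rule are not reported here. Replicates of a group differed by a chi-square of 19.8 to 154 per gene.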

Additional observations from a re-analysis of the deposited data

How the results depend on the processing

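All 9 members were higher in hHKDC1 OE fat under every alternative that tested them, while the sizes and calls varied. Their median log2 fold change of 7.91 was 2.78 and 5.16 with limma at the larger and smaller pseudocount and 3.90 with at least 10 counts in every library, where 1 of the members was tested. In fat, 0 genes and 0 members were called by edgeR, whereas 1303 genes and 9 members were called by DESeq2, 803 and 9 with no filter on low counts, 876 and 9 with the 12 libraries in 1 fit, and 1024 and 9 without the libraries described as knockouts. With a pseudocount of 1 or of 0.1 on log2 FPKM, limma called 1 gene and no member. Leaving out 1 library at a time gave 0 to 3251 genes and 0 to 9 members, the highest of both without hHKDC1 OE replicate 2. With the replicate block, 168 genes (1.03%) and 7 members were called in fat, where the libraries share only a number. In liver, 0 members were called throughout, and the genes called went from 0 to 90 with DESeq2, 2 with library size alone, 327 with no filter, 3 and 7 with limma at the larger and smaller pseudocount, 17 with the replicate block, 76 without the libraries described as knockouts, and 0 to 146 with 1 library left out, the highest without hHKDC1 OE replicate 2. For the effect in fat minus that in liver, the genes called went from 0 to 495 with DESeq2, 479 with no filter, 6 with limma at the smaller pseudocount, 126 without the libraries described as knockouts, and 0 to 1211 with 1 library left out; the members called were 7, 6, 0, 6, and 0 to 6. The replicate block changed no other call of a member. In the effect in fat minus that in liver, the members' median of 7 was 2.81 and 4.81 with limma at the larger and smaller pseudocount. It was 4.43 with at least 10 counts in every library, where 1 member was tested, 9.36 without the libraries described as knockouts, and 6.39 to 7.92 with 1 library left out. Between null fat and null liver, 9810 genes were called, 5163 higher and 4647 lower in fat, against 9012 and 2286 with library size alone, which called 1 member, Cd37, beside 0.

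The values near 0 changed sign. The median of the members tested in liver, 0.02 on the log2 scale, was -0.48 with at least 10 counts in every library, -0.04 and -0.37 with limma at the larger and smaller pseudocount, -0.69 without the libraries described as knockouts, and -0.14 to 0.68 with 1 library left out. Between null fat and null liver, the median of 0.28 was -0.22 with no filter, -0.11 and -0.21 with limma, and -0.26 with the 12 libraries in 1 fit. It ranged from -0.01 to 0.62 with 1 library left out, the lowest without null fat replicate 3. The other way, it was 1.17 with library size alone and 0.97 with at least 10 counts in every library, where 1 member was tested. Cd79b, at -0.27, was 0.63 with library size alone and -0.57 to 0.11 with 1 library left out. The causes were not tested, except that the members tested change with the filter. Most members had 0 to 10 counts in a null or liver library, and counting error limits each such level.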
